A study of Homo sapiens with 2 samples.

Results

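The genes described here control entry into mitosis from G2 and stop it when DNA is damaged or incompletely copied. They are ATM, ATR, CLSPN, CHEK1, CHEK2, WEE1, PKMYT1, CDC25B and CDC25C, taken as a fixed set of 9 genes, and every array probe whose RefSeq accession belongs to one of them was included. All 9 genes were found, with 12 of the 42405 different probes on the array (30 of 58717 spots). In each channel of either array every one of these probes was well above background, at a signal of 4.36 to 274 times the local background. One ATM probe held a spot that the scanner software marked as an outlier, so 11 probes entered the counts, among 25664 probes measured on the array, and the remaining ATM probe is given from its other spots.

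Cells of RWPE-1, a noncancerous line of human prostate epithelium, were transfected with pre-miR-424, a synthetic precursor of the microRNA miR-424, or with Negative control #1, each at 30 nM. Their RNA was compared on 2 Agilent two-colour arrays. The pre-miR-424 RNA carried Cy5 and the control RNA Cy3 with normal labelling, and the dyes were exchanged on the dye swap. According to the labels these were technical replicates, so the comparison has 1 replicate, no p-value was computed, and the SD over the 2 arrays given after a mean covers labelling and hybridisation only.

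RWPE-1 was made by immortalisation with a human papillomavirus, whose oncoproteins act on p53 and RB, and it stands here for normal epithelium as a single line. The labels do not give the time between transfection and harvest. Of the genes that mark prostate basal epithelium, KRT5, KRT14 and TP63 were all well above background, as were the epithelial genes CDH1, EPCAM, KRT8 and KRT18. KLK3, a gene of luminal cells, was not. The stromal genes COL1A1, DCN and ACTA2 were also well above background, the endothelial gene PECAM1 was not at any of its 3 probes, and the leukocyte gene PTPRC was at 1 of 4.

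In the checkpoint response, ATM is activated at DNA double strand breaks and ATR at single-stranded DNA of stalled replication forks. ATM acts mainly through the kinase CHK2 (CHEK2), and ATR through CHK1 (CHEK1), for which claspin (CLSPN) is the adaptor. Both lines converge on CDK1, the kinase that drives mitosis. WEE1 and PKMYT1 hold CDK1 inactive by phosphorylating it, and the CDC25 phosphatases remove these phosphates, so that WEE1 and PKMYT1 delay and CDC25B and CDC25C promote G2 entry. CHEK1, WEE1 and the related phosphatase CDC25A have been described as targets of the miR-15/16 family, to which miR-424-5p belongs by its seed.

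The sequences of the delivered microRNA and of its relatives are shown because the seed, bases 2 to 8 in capitals, is what relates miR-424 to that family. They are RefSeq mature sequences, and miR-424-5p lies at chrX:134546680-134546701 on the minus strand (GRCh38.p14). The labels do not say which arm of miR-424 the precursor delivered, and both arms are given.
hsa-miR-424-5p: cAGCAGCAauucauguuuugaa
hsa-miR-424-3p: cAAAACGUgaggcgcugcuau
hsa-miR-16-5p: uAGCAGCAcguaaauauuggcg
hsa-miR-15a-5p: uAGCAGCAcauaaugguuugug
hsa-miR-503-5p: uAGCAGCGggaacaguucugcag
The seed AGCAGCA is shared by 7 of 2370 human mature sequences in the table, among them miR-15a-5p and miR-16-5p, and pairs with UGCUGCU in a transcript. The seed of miR-503-5p, whose gene lies beside that of miR-424, shares 6 of the 7 bases by position, and that of the other arm, miR-424-3p, shares 2. Whether the transcripts of the genes below hold such a site was not analysed here.

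The noise of the arrays sets what can be read from a ratio. All ratios below are log2 ratios of pre-miR-424 over control, turned to this direction on the dye swap, so that a negative value is lower expression with pre-miR-424. Over all measured probes the ratios had an SD of 0.24 with normal labelling and 0.27 on the dye swap, and the arrays correlated weakly across probes (Pearson r = 0.157, genes not being independent replicates). The error of a mean of both arrays was taken from their difference over all measured probes, at 0.17 (SD). That difference also holds any dye effect of a probe, which cancels in the mean. The 0.17 is therefore a yardstick and not a direct measure of this error. By contrast, the median SD between spots of a probe on the same array was 0.050, so that arrays differed more than spots did. The 5th and 95th percentiles of the means were −0.29 and 0.29.

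**Figure D1:**
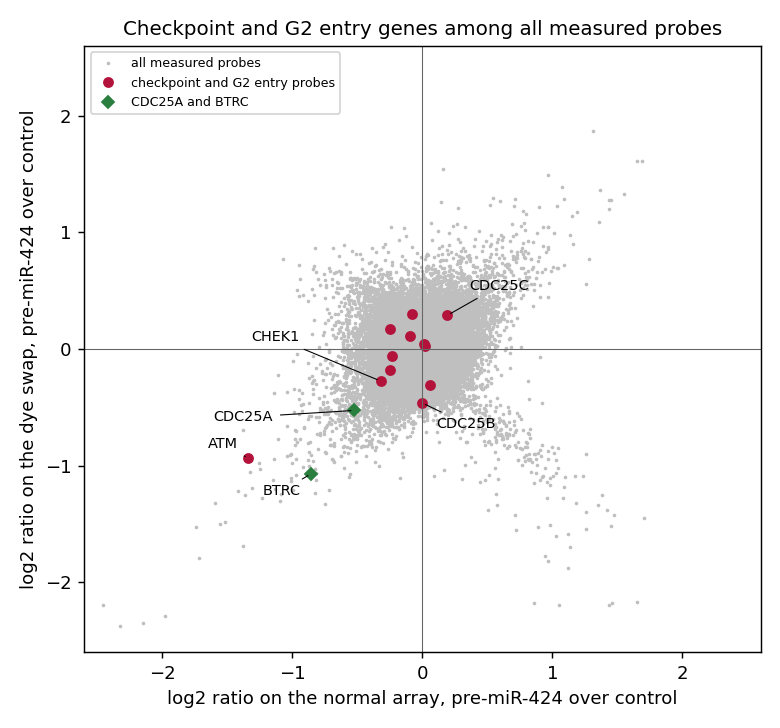
Each point is a probe, with its log2 ratio of pre-miR-424 over control under normal labelling on the x axis and on the dye swap (sign turned) on the y axis; grey points are measured probes (2 lie outside the axes), red points the 12 probes of the 9 checkpoint and G2 entry genes, and green diamonds CDC25A and BTRC. One ATM probe, at −1.34 and −0.94, lies at the lower left edge of the cloud, and the other red points lie within it.

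Among the 11 measured probes, 4 were lower with pre-miR-424 on both arrays (36.4%), where 26.4% of all measured probes were. They were the probes of CHEK1, CLSPN, WEE1 and CDC25B, and that of CDC25B was counted by a ratio of −0.00074 on 1 array. Another 3 probes were higher on both arrays (27.3%, against 25.0% of all measured probes), namely those of CDC25C, 1 of ATR and 1 of CHEK2. The remaining 4 probes had opposite signs on the arrays. These shares lie near those of all probes, given that a single probe is 1 of 11.

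None of the 11 probes was past 1.5-fold on both arrays in either direction (0 probes, where 0.429% of measured probes were lower and 0.421% higher by this rule), and none was past 2-fold (0.0857% lower and 0.0546% higher). Their median ratio was −0.04, and the median of all measured probes was −0.0073. At the level of genes, each represented by its brightest measured probe, the median over the 9 genes was −0.12, with −0.10 under normal labelling and −0.06 on the dye swap, beside a median of −0.0040 over the 13812 measured genes. Mean ratios of the 11 probes ran from −0.30 for CHEK1 to 0.24 for CDC25C.

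**Figure D2:**
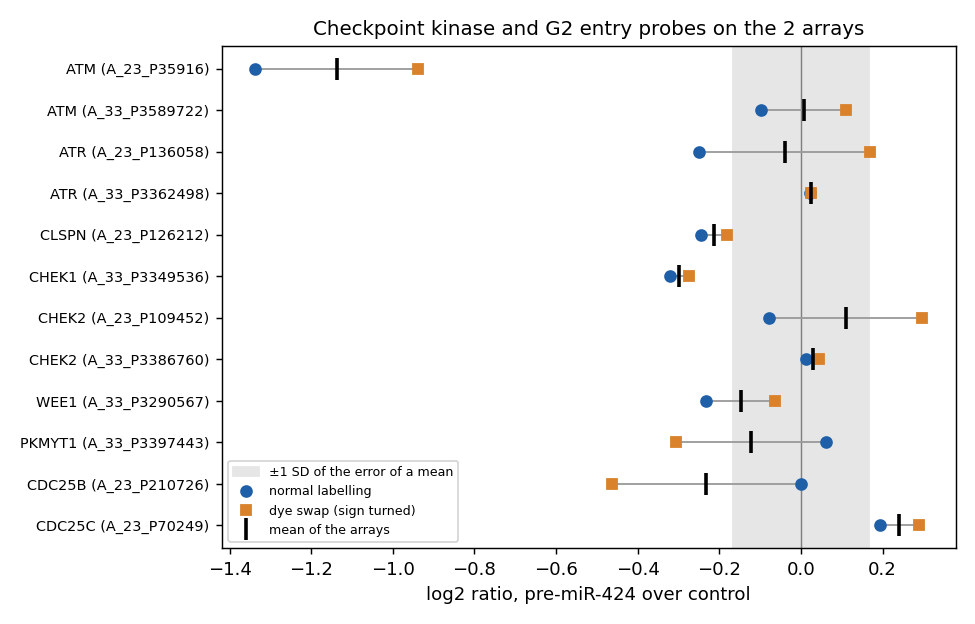
Log2 ratio of pre-miR-424 over control for the 12 probes of the 9 genes, with normal labelling as circles, the dye swap (sign turned) as squares and their mean as a bar; the grey band is ±1 SD of the error of a mean over all measured probes (0.17). Besides 1 ATM probe, the means of CHEK1, CLSPN and CDC25B lie below the band and that of CDC25C above it. Of all measured probes, 4.84%, 9.82% and 8.30% had means as low as CHEK1, CLSPN and CDC25B or lower. A mean as high as that of CDC25C or higher was found for 7.47%.

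Of the sensor kinases, ATM gave the largest difference, at 1 of its 2 probes. Probe A_23_P35916, printed as 10 spots, had a ratio of −1.34 with normal labelling and −0.94 on the dye swap (mean −1.14 ± 0.28, SD of 2 arrays), which is 2.20-fold lower with pre-miR-424. On the log2 intensity scale the pre-miR-424 channels were at 7.98 and 8.23 and the control channels at 9.32 and 9.17. The difference was visible before normalization. With normal labelling, the mean spot signal of this probe was 317 in Cy5, the pre-miR-424 channel, and 527 in Cy3, and on the dye swap it was 210 in Cy3, now the pre-miR-424 channel, and 780 in Cy5.

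The spots of this probe were alike within each array. The 9 spots used on the array with normal labelling ran from −1.56 to −1.04 with a median of −1.35, and the 10 spots of the dye swap from −1.06 to −0.76 with a median of −0.95. The spot marked as an outlier, left out with normal labelling, had a ratio of −1.38 there and −1.02 on the dye swap, within the range of the other spots on both arrays. When only the marked spots were dropped and the rest of each probe kept, 25983 probes were measured, 113 of them (0.435%) were at least 1.5-fold lower on both arrays, and the ATM probe was 1 of these. By the mean, 23 of the 25983 probes (0.0885%) were as low or lower.

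The second ATM probe, A_33_P3589722, gave no such difference. Its ratio was −0.10 with normal labelling and 0.11 on the dye swap (mean 0.0067 ± 0.15), from 2 spots that gave −0.20 and 0.0049 with normal labelling, and 0.093 and 0.13 after the swap. Its pre-miR-424 channels were at 9.40 and 9.43 and its control channels at 9.49 and 9.32. Both probes carry the same accession in the array design, NM_000051, and where on the transcript each lies was not analysed here. Their means were 1.14 apart on the log2 scale. Among 3420 genes with several probes above background, the median distance was 0.098, and 6 genes (0.175%), ATM included, had probes at least this far apart. ATM expression is therefore given by probe only, and the measured level of the gene depends on which probe is read. The gene-level median above uses the second probe.

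**Figure D3:**
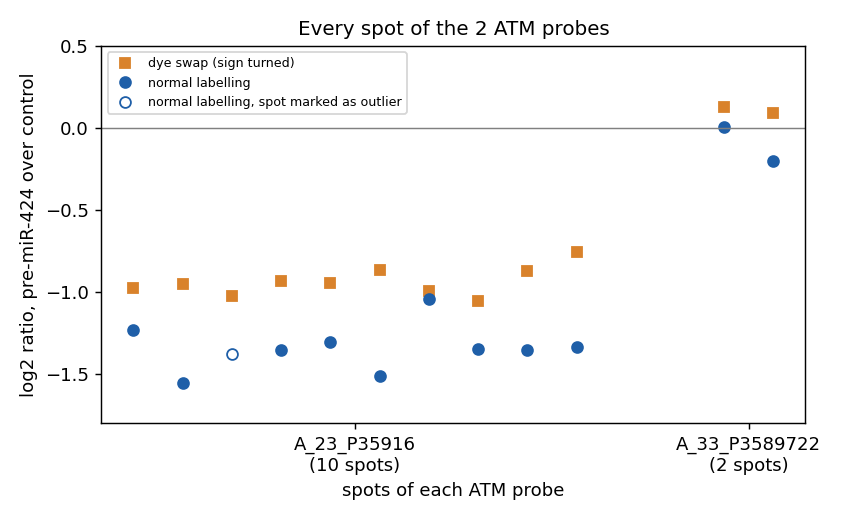
Log2 ratio of pre-miR-424 over control at every spot of both ATM probes, with circles for normal labelling, squares for the dye swap (sign turned) and an open circle for the spot that the scanner software marked as an outlier. All spots of A_23_P35916 lie at or below −0.76 and all spots of A_33_P3589722 at or above −0.20.

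ATR, the kinase of the replication checkpoint, had a mean within the error at either probe. Probe A_23_P136058 had ratios of −0.25 and 0.17 (mean −0.04 ± 0.30), and probe A_33_P3362498 had 0.02 and 0.03 (mean 0.02 ± 0.0033), a mean that turned negative (−0.03) with median centring in place of loess. The probes were 0.063 apart, closer than the probes of most genes.

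Claspin, through which ATR activates CHK1, had ratios of −0.25 and −0.18 at its probe A_23_P126212 (mean −0.21 ± 0.046). Of all measured probes, 9.82% had a mean as low or lower. CHEK1, the effector kinase of ATR, was the lowest of the 11 measured probes. Its probe A_33_P3349536 was at log2 intensities of 11.99 and 11.93 with pre-miR-424 and 12.31 and 12.21 with the control. The ratios were −0.32 and −0.27 (mean −0.30 ± 0.033), or 1.23-fold lower (−18.6%). The mean of CHEK1 was beyond the 0.17 error of a mean. CHEK1 was not an extreme of the array, since 1241 measured probes (4.84%) had a mean as low or lower.

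For CHEK2, the effector kinase of ATM, the probe A_23_P109452 had ratios of −0.08 and 0.30 (mean 0.11 ± 0.27). The probe A_33_P3386760 had 0.01 and 0.05 (mean 0.03 ± 0.024), which changed sign with median centring (−0.03). Neither mean exceeded 0.17, so a difference in CHEK2 was not told apart from the error as taken here.

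The means of the CDK1-inhibiting kinases were within the error of the arrays. WEE1 had ratios of −0.23 and −0.06 (mean −0.15 ± 0.12), with pre-miR-424 channels at 12.46 and 12.48 and control channels at 12.69 and 12.55, and 16.7% of measured probes were as low or lower. PKMYT1, which acts on CDK1 at membranes, had ratios of 0.06 and −0.31 (mean −0.12 ± 0.26), opposite signs on the arrays. WEE1 was thus lower on both arrays but within the error, while PKMYT1 had no direction common to the arrays.

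The phosphatases CDC25B and CDC25C, which release CDK1, did not go the same way. CDC25B had ratios of −0.00074 and −0.46 (mean −0.23 ± 0.33). Its level with normal labelling was 13.18 in both channels, so that its mean rested on the dye swap, where the pre-miR-424 channel was at 12.89 and the control channel at 13.36. CDC25C had ratios of 0.19 and 0.29 (mean 0.24 ± 0.068), or 1.18-fold higher, from 11.64 and 11.73 with pre-miR-424 and 11.45 on both arrays with the control. It had the highest mean of the 11 measured probes, and 92.5% of measured probes were as low or lower. CDC25A, the third phosphatase of the family, acts also at the G1/S transition and was measured beside the 9 genes. Its ratios were −0.52 and −0.53 (mean −0.52 ± 0.0031), 1.44-fold lower with pre-miR-424, with channels at 10.52 and 10.56 against 11.04 and 11.08. It was short of 1.5-fold, and 297 measured probes (1.16%) had a mean as low or lower. CDK1 itself, on which these enzymes act, had ratios of −0.16 and 0.11 (mean −0.03 ± 0.19) over 10 spots.

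The scaling of the arrays moves these small ratios. Median centring in place of loess put the median of all measured probes at 0.10 with normal labelling and at −0.18 on the dye swap. Under it CHEK1 was at −0.15 and −0.57, CLSPN at −0.16 and −0.37, WEE1 at −0.04 and −0.37 and CDC25C at 0.35 and 0.01, with the same signs as before on both arrays, and the low ATM probe was at −1.26 and −1.11. CDC25B, by contrast, was then at 0.23 and −0.80 and PKMYT1 at 0.24 and −0.61, each with opposite signs on the arrays.

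The wider pathway was read from 3 lists of other genes, by the brightest measured probe of each. The first held the partners of the sensor kinases and of claspin, such as the 9-1-1 clamp (RAD9A, RAD1, HUS1), the MRN complex (MRE11, RAD50, NBN) and replication protein A. Of its 18 genes 17 were measured, 6 were lower on both arrays and 2 were higher, where 26.7% of all measured genes were lower and 26.8% higher, and 9 had opposite signs. None was past 1.5-fold (0.391% of all measured genes were lower and 0.623% higher by this rule), and the median was −0.03. The extremes were subunits of the same protein, replication protein A, which coats single-stranded DNA. RPA1 had ratios of −0.20 and −0.22 (mean −0.21). Its second probe had 0.06 and 0.08 but was dim, at log2 intensities of 7.10 to 7.22 against 13.99 to 14.23 for the first. RPA2 had 0.16 and 0.18 (mean 0.17), with 0.25 and 0.19 at its second probe. With median centring the sign of RPA1 differed between the arrays (0.13 and −0.64) and so did that of RPA2 (0.40 and −0.17).

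The second list held CDK1 and its cyclins, the phosphatase CDC25A, the mitotic kinases PLK1, AURKA and MASTL, the AURKA cofactor BORA, the phosphatase inhibitors ARPP19 and ENSA, and FOXM1, a transcription factor of G2 genes. Of its 12 genes 11 were measured, 6 were lower on both arrays, 3 were higher and 0 were past 1.5-fold, with a median of −0.04. Among all measured genes 26.7% were lower and 26.8% higher, and 0.391% were lower and 0.623% higher past 1.5-fold. The lowest was CDC25A (above). The highest was MASTL, the Greatwall kinase, which keeps CDK1 substrates phosphorylated, with ratios of 0.24 and 0.38 (mean 0.31 ± 0.097). PLK1, the mitotic kinase that activates CDC25C and marks WEE1 and claspin for degradation, was named after its values were seen because both of its probes were lower on both arrays, at −0.38 and −0.57 for A_23_P118174 and −0.27 and −0.47 for A_33_P3298387.

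The third list held proteins that restrain CDC25 or CDK1, the 14-3-3 proteins, p21 (CDKN1A) and GADD45, together with BTRC and FBXW11. Of its 12 genes 11 were measured, 5 were lower on both arrays and 3 were higher, with a median of −0.10. Among all measured genes 26.7% were lower and 26.8% higher. One gene, BTRC, was lower past 1.5-fold on both arrays, as were 0.391% of all measured genes. BTRC encodes β-TrCP, the subunit of an SCF ubiquitin ligase that recognises CDC25A, WEE1 and claspin and sends them for degradation. Its probe A_23_P46819 was at 8.52 and 8.47 with pre-miR-424 and at 9.37 and 9.54 with the control. The ratios were −0.86 and −1.07 (mean −0.96 ± 0.15), or 1.95-fold lower, and 36 measured probes (0.140%) had a mean as low or lower. Among the settings tried its mean lay between −1.13 and −0.86. FBXW11, the close relative of BTRC that recognises the same proteins, was named after its values were seen, with ratios of 0.03 and −0.08 (mean −0.02 ± 0.083). The highest gene of the list was YWHAG, a 14-3-3 protein that binds phosphorylated CDC25C, with ratios of 0.32 and 0.65 (mean 0.48 ± 0.23). With 1 gene of each list missing for an outlier spot, BRCA1, CCNA2 and YWHAB were not measured by the rule. From their other spots their ratios were 0.10 and 0.20, 0.0058 and 0.14, and −0.05 and −0.0024.

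**Figure D4:**
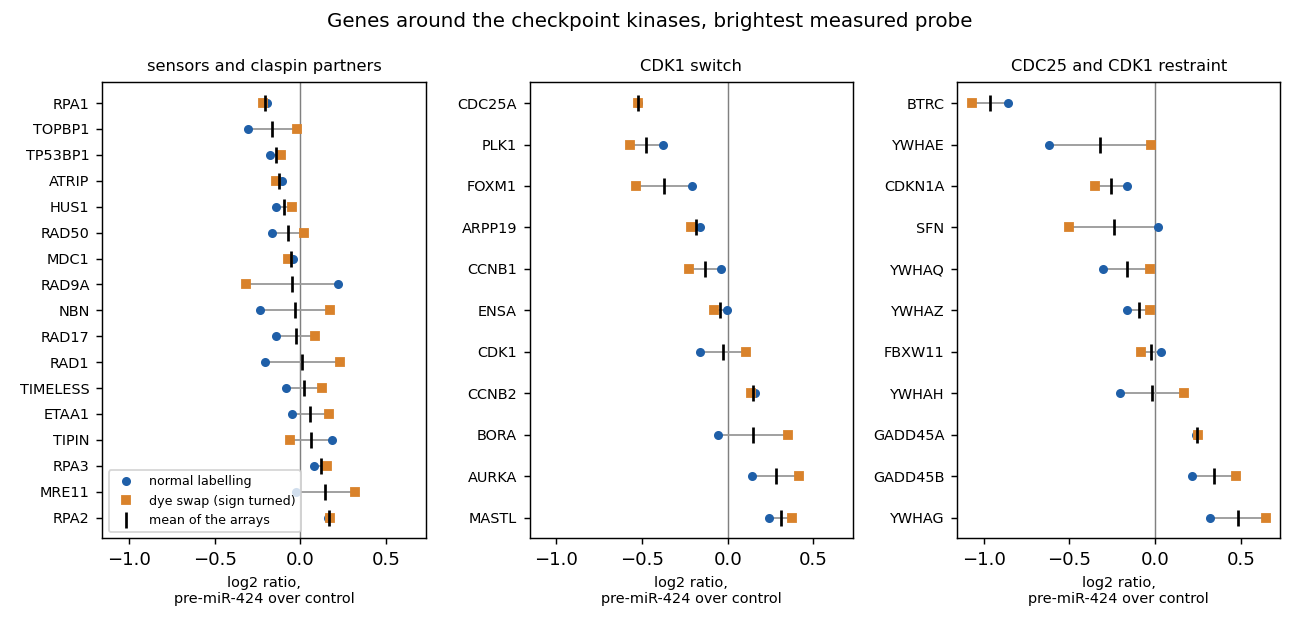
Log2 ratio of pre-miR-424 over control (x axis) for the measured genes of the 3 pathway lists, 1 panel each, with normal labelling as circles, the dye swap (sign turned) as squares and their mean as a bar. BTRC stands apart at −0.86 and −1.07, and the next lowest mean is that of CDC25A, at −0.52 and −0.53.

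Promoters are shown for CLSPN and CDC25C because each holds a word known from cell cycle promoters. The table of RefSeq promoters (GRCh38.p14, 250 bases before to 50 after the start) listed 16 promoters for 7 of the 9 genes, several of them overlapping starts of the same gene. E2F words were TTTGGCGC, TTTCCCGC, TTTGCCGC and TTTCGCGC on both strands, found in 1164 of 35116 promoters (3.31%) and in 1 of the 16, that of CLSPN at chr1:35769929-35770228 (minus strand), where the word begins 5 bases before the start. The CHR word TTTGAA, also searched on both strands, was found in 5324 promoters (15.2%) and in 3 of the 16. Of these, 2 are overlapping CDC25C promoters that share the word, of which the one at chr5:138331755-138332054 (minus strand) holds it 30 bases before the start, and 1 is of ATM. The other CDC25C promoters listed held neither word. Outside the 9 genes, CDC25A held an E2F word and CDK1 held both kinds. The words searched are in capitals.
CLSPN: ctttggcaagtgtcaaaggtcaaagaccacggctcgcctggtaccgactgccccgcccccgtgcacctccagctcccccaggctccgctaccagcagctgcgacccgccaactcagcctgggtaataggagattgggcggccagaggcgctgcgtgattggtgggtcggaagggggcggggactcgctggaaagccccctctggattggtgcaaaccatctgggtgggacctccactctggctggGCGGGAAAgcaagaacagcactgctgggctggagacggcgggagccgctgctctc
CDC25C: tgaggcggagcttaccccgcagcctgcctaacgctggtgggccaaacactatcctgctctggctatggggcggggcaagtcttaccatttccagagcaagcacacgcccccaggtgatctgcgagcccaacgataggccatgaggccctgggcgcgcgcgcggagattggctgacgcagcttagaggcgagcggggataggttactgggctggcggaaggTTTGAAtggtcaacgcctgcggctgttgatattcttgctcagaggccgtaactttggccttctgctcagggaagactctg
A word found in this way describes the sequence only, and binding was not measured in these cells.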

How the data were processed

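Members and lists were chosen with earlier results of these data known. Groups and dyes came from the sample labels. The scanner files deposited by the authors (Feature Extraction 10.7.3.1) give median spot intensity and local background per channel, not normalized, flags for outlier spots and for signals well above background (0 spots were saturated), and a log10 Cy5/Cy3 ratio. A further deposited table, from the authors' own processing, holds log2 ratios, with scale, direction and steps not stated. Against the values computed here its columns correlated at 0.991 and 0.988 across 42405 probes, with medians of 0.0236 and 0.0355, as log2 ratios of Cy5 over Cy3 that were not turned on the swap. The submitters' processing notes name limma.

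Median intensities were background-corrected with normexp (offset 50) in limma 3.58.1 (R 4.3.3) and normalized by loess within arrays, since no steps are given for these arrays in the sources used here. Aquantile scaling gave the channel levels and changes no ratio. The offset draws the ratios of dim probes towards 0. Spots of a probe were averaged. A probe was measured if it was marked well above background in Cy3 and in Cy5 on each array (at most of its spots) and held no outlier spot, which removed 319 probes, 317 of them printed as 10 spots. Median spot intensities were 165 to 314, and 66.8% to 70.1% of spots were well above background. Of 27134 probes with an accession, 25771 (95.0%) matched a RefSeq symbol. Genes named outside the 9 were CDK1, CDC25A and, of each list, genes past 1.5-fold and the highest and lowest. PLK1 and FBXW11 were added after their values were seen, and genes that an outlier spot left out of a list were named as well. Counting used Python 3.11.15 with pandas 2.3.3 and numpy 2.4.6. The rule for a call past a fold on both arrays was tested on simulated ratios, and normalization and filtering were not simulated. Other settings tried were median centring, a smaller offset (16) or uncorrected background, ratios of the scanner or of the authors, weaker filters on dim probes, outlier spots kept or dropped singly (chosen after seeing the data), single arrays, genes averaged over their probes and a threshold on the mean.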

Additional observations from a re-analysis of the deposited data

How the results depend on the processing

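The signs of the mean ratios of the low ATM probe, CHEK1, CLSPN, WEE1, CDC25B, CDC25C, CDC25A and BTRC were kept under the 8 alternatives for single probes, and those of ATR, CHEK2, PKMYT1, CDK1 and the second ATM probe were not. The number of the 9 genes' probes at least 1.5-fold lower was 1 in place of 0, the ATM probe, with outlier spots kept and also with them dropped singly. The scanner software's ratios left 1 probe higher on both arrays in place of 3. With median centring the median over the 9 genes was −0.18 and that of the CDK1 list −0.10, 1 gene of the sensor list was higher, and 3 genes of the CDK1 list and 3 of the restraint list were lower. The mean over a gene's probes also left 3 of the restraint list lower. With either array alone, 5 to 7 probes were lower and 4 to 6 higher, the median over the 9 genes was −0.097 to −0.063, that of their probes −0.078 to 0.026 (its sign thus turned), that of the sensor list −0.11 to 0.021 (turned likewise), that of the CDK1 list −0.081 to −0.056 and that of the restraint list −0.16 to −0.027. The lists then had 8 to 13 (sensor) lower genes, and 4 to 9 (sensor), 3 to 5 (CDK1) and 4 to 5 (restraint) higher genes. These counts need a sign on 1 array only and by construction cannot be lower. No paired analysis was possible because each ratio already sets both groups against each other on an array and there is 1 replicate. The 2 arrays share the same RNAs, so differences between cultures were not measured.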
